A study of Rattus norvegicus with 12 samples.

Results

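The RNA of 9 genes that make, move, bind or sense bile acids was followed in rat ovary. Fabp6, Slc10a2, Slc51a, Slc51b, Cyp27a1, Cyp7b1, Cyp8b1, Slc27a2 and Gpbar1 are 9 of the 19730 genes in the deposited table, and each was found there by its symbol. The table lists all of them as protein coding, Fabp6 on chromosome 10, Slc10a2 on 16, Slc51a on 11, Slc51b and Cyp8b1 on 8, Cyp27a1 and Gpbar1 on 9, Cyp7b1 on 2 and Slc27a2 on 3. The group was chosen on measured values: Fabp6 was lower in the PCOS group and Slc10a2 was higher after mogroside V (MV). The levels of these 2 genes are therefore given as a description with no test. The other 7 genes were added for their part in bile acid handling, with results of the same comparisons already known.

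Ovaries came from wild type Sprague Dawley rats at postnatal week 15, with 1 library from each of 12 rats and 4 rats in each of 3 groups. Control rats were untreated and ate standard chow. PCOS rats received letrozole, an inhibitor of the aromatase that makes estrogen from androgen, at 1 mg/kg per day for 30 days together with a high-fat diet (HFD), a rat model of polycystic ovary syndrome (PCOS). PCOS-MV rats had the same letrozole and HFD and then MV at 600 mg/kg per day by gavage for 30 days. The paper's methods give letrozole and HFD only before the MV period, and all rats were killed at its end. PCOS ovaries were thus taken about 30 days after the stated end of letrozole and HFD. Letrozole and diet were given together, so their effects cannot be told apart, and the MV preparation was a fruit extract that is only in part mogroside V. Whether PCOS rats were gavaged with vehicle during the MV period is not given in the sources used here. The 4 PCOS libraries enter the comparison with Control as well as that with PCOS-MV.

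Bile acids are made from cholesterol, mainly in the liver, by a classic pathway that starts with Cyp7a1 and an acidic pathway that starts with the sterol 27-hydroxylase Cyp27a1. In the ileum, Slc10a2 carries them into the enterocyte with sodium, Fabp6 binds them in the cytosol, and the Slc51a and Slc51b subunits together carry them out at the basolateral side. Several of these proteins also have steroids or oxysterols among their ligands: the SLC51 transporter moves steroid sulfates, and the acidic pathway enzymes act on oxysterols, the oxidised forms of the cholesterol from which the ovary makes its hormones.

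The deposited values were FPKM, read fragments scaled to gene length and library size, which can be compared between genes. Read totals were not used here, and steps in the low values put relative depth between 0.917 and 1.12 of that of Control replicate 1. A gene was tested when its mean over the 12 libraries was at least 1 FPKM, which 13430 genes passed. Of the 9 genes, 5 passed and 4 did not. Cyp7b1 lay above this limit with 1.33 to 2.51 FPKM, and Cyp8b1, Slc27a2, Gpbar1 and Slc51b lay below it. Libraries of a group correlated with r from 0.921 to 0.978. Of 5 listed oviduct epithelium markers, 3 were measured, Pax8, Cdh1 and Epcam, while Ovgp1 and Foxj1 were not matched. Control replicate 3 stood apart by the sum of these 3, with 80.9 FPKM against 5.70 to 8.03 in the other Control libraries. In PCOS these sums were 25.3 to 91.1, mostly Cdh1, and in PCOS-MV 3.83 to 26.3. PCOS replicate 2 alone held Alb, the serum albumin of hepatocytes, above 1 FPKM, at 4.33.

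The regions around the starts of the 4 most abundant genes are shown because Fabp6, Slc10a2 and Slc51a were all lower in PCOS than in Control ovaries and Cyp27a1 was higher. Each runs from 250 bases before to 50 after the start on the strand of the gene, as RefSeq gives it for the GRCr8 assembly, and capitals mark a match to a motif on either strand. RefSeq windows were matched for 8 of the 9 genes, and Cyp7b1 was not among them.
Fabp6, chr10:28569678-28569977, minus strand: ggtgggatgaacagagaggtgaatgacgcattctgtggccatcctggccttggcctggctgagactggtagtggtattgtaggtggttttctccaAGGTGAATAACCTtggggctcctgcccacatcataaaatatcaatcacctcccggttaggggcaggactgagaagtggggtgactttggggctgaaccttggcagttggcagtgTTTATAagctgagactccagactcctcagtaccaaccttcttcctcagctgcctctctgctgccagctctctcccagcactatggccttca
Slc51a, chr11:81803891-81804190, plus strand: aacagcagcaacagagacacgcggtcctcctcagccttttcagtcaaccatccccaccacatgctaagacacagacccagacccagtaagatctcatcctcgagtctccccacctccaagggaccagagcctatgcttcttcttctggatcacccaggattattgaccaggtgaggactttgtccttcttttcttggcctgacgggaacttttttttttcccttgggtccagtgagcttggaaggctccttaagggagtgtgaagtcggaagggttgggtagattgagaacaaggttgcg
Slc10a2, chr16:91087839-91088138, plus strand: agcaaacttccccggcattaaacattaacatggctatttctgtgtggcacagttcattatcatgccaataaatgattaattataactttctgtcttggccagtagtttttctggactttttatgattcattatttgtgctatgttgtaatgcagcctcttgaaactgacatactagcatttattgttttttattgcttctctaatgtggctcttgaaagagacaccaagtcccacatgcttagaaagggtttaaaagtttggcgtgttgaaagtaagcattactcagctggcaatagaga
Cyp27a1, chr9:83713282-83713581, plus strand: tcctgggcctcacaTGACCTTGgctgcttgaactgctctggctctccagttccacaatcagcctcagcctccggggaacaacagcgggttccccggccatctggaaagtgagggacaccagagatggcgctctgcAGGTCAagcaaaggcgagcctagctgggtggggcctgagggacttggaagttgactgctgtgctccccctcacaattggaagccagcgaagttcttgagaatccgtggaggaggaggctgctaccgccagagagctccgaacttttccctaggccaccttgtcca

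The motifs searched were AGGTCA, the half-site that many nuclear receptors bind, its inverted repeat with a single base between, AGGTCANTGACCT, which the bile acid receptor FXR binds, the longer half-site CAAGGTCA, the GATA motif AGATAA and the TATA motif TATAAA. The inverted repeat was in none of the 8 windows and in 0.0269% of the 33469 RefSeq windows of the same length. A looser form of it, AGGTNANTNACCT, was written after the Fabp6 sequence had been seen and overlaps with the stricter form. It matched Fabp6 at bases -155 to -143, counted from the start, as AGGTGAATAACCT, and 16 windows in all, or 0.0478%. Fabp6 also had a TATA motif on the opposite strand at -41 to -36, a motif found in 14.2% of windows. Cyp27a1 held a half-site at -115 to -110 and another at -236 to -231, and the longer half-site at -236 to -229 overlaps with the second. Half-sites were in 16.2% of all windows and the longer form in 1.52%. Slc51b and Slc27a2 each held a half-site, at -132 to -127 and at -76 to -71. No motif searched, the GATA motif of 11.6% of windows included, was in those of Slc10a2, Slc51a, Cyp8b1 and Gpbar1. A match describes letters only.

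Fabp6, the ileal bile acid binding protein, was the most abundant of the 9 genes in Control ovaries. Its level was 535, 331, 265 and 445 FPKM in Control replicates 1 to 4. In PCOS it was 21.1, 17.4, 43.6 and 25.9 FPKM, so that the highest PCOS value lay far below the lowest Control value. The ratio of mean FPKM, PCOS to Control, was 0.0685, and the difference of mean log2(FPKM + 1) was -3.85 with a limma SE of 0.30. In PCOS-MV the level was 260, 42.4, 323 and 40.1 FPKM. PCOS-MV rats thus split: replicates 1 and 3 lay near the lower Control rats, while replicates 2 and 4 lay within the PCOS range. PCOS-MV exceeded PCOS by 2.07 (SE 0.71) on the log2(FPKM + 1) scale, and these groups overlapped. Since whole ovaries were sequenced, fewer cells that hold a transcript and less of it in each cell cannot be told apart, here and for the genes that follow.

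Slc10a2, the sodium-dependent transporter that takes bile acids up, was a gene of modest level in Control, at 5.44, 11.3, 10.1 and 8.43 FPKM. PCOS libraries held 0.649, 2.24, 2.25 and 1.02 FPKM, all below the Control range, and the log2 difference was -1.97 (SE 0.28). PCOS-MV libraries held 17.0, 24.9, 69.3 and 25.7 FPKM, all above both other groups. PCOS-MV exceeded PCOS by 3.65 (SE 0.41) on the log2(FPKM + 1) scale, a ratio of mean FPKM of 22.2. Replicate 3 was far above its group, and without it the difference was 3.25 and the ratio 14.6.

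PCOS-MV vs Control shares its libraries with the values on which both genes were chosen, so it too is given for them as a description with no test. The log2(FPKM + 1) difference of Fabp6 was -1.78 (SE 0.71), and the groups overlapped. Slc10a2 was higher than every Control rat in 4 of 4 PCOS-MV rats, with a difference of 1.68 (SE 0.40) and a ratio of mean FPKM of 3.88. Without PCOS-MV replicate 3 this difference was 1.28 and the ratio 2.55.

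Slc51a, the alpha subunit of the basolateral exporter of bile acids and steroid sulfates, fell in PCOS and rose after MV. Control libraries held 67.0, 76.7, 88.9 and 66.3 FPKM, and PCOS libraries 7.55, 4.08, 11.5 and 8.86. No PCOS value came near the Control range. The difference was -3.13 (SE 0.25) on the log2(FPKM + 1) scale, with limma's adjusted p = 5.85e-05 and an exact permutation p of 0.0286. PCOS-MV libraries held 59.9, 35.3, 113 and 37.6 FPKM, all above PCOS. This difference was 2.71 (SE 0.40; limma adjusted p = 0.00199; exact permutation p = 0.0286). PCOS-MV rats spanned the Control range, with replicate 3 above it and the other 3 below, and PCOS-MV vs Control did not pass the test (-0.43, SE 0.34; limma adjusted p = 0.713; exact permutation p = 0.286).

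Slc51b, the beta subunit without which the exporter does not reach the membrane, was hardly seen. It was listed at 0 in 3 Control, 3 PCOS and 4 PCOS-MV libraries, at 0.0504 FPKM in Control replicate 4 and at 0.11 FPKM in PCOS replicate 1. Slc51a was thus at 4.08 to 113 FPKM in libraries in which its partner was listed at 0 or at most at 0.11 FPKM.

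**Figure D1:**
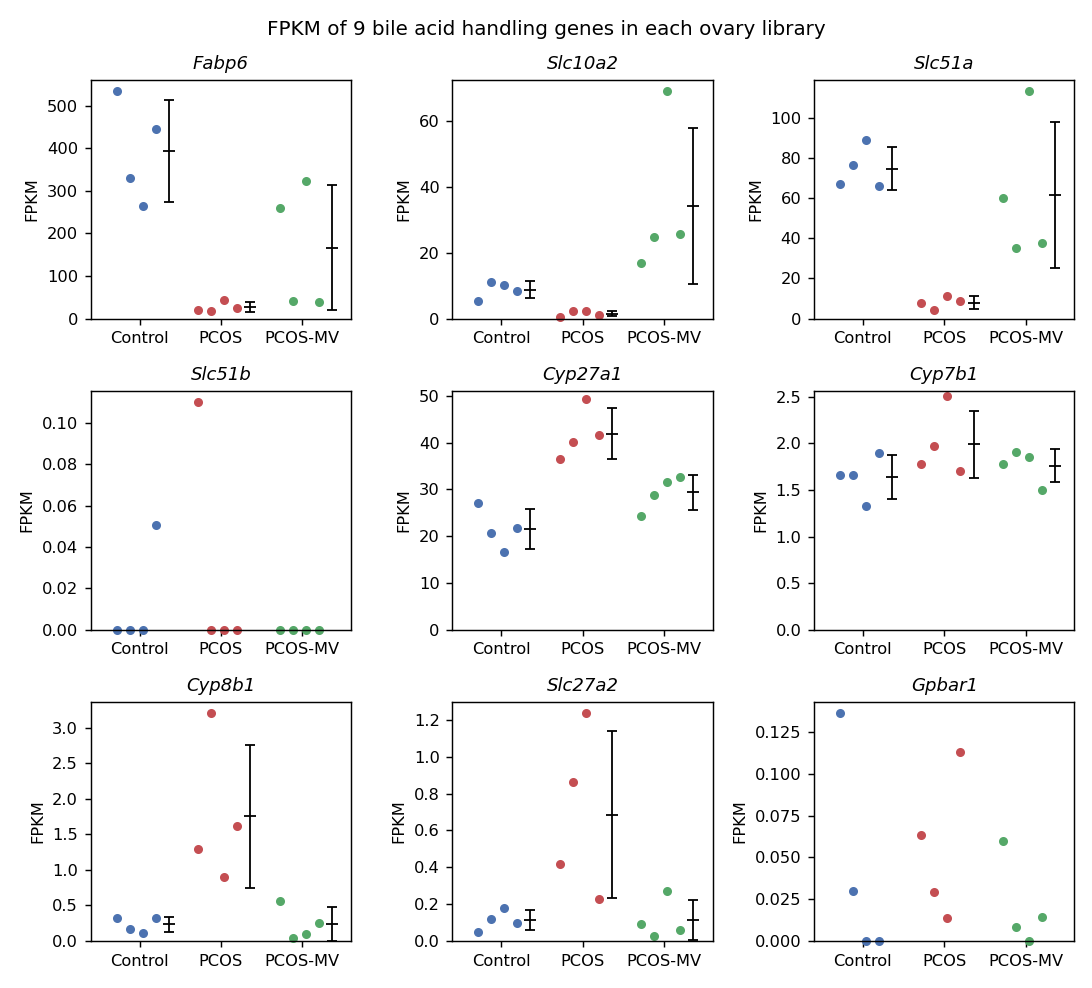
FPKM of the 9 genes in each of the 12 libraries, 1 panel per gene with its own scale from 0. Points are rats, replicates 1 to 4 from left to right in each group, and black bars are mean and SD (n = 4), left out for Slc51b and Gpbar1, which hold zeros. Fabp6 and Slc51a are high in Control, low in PCOS and mixed in PCOS-MV, Slc10a2 is highest in PCOS-MV, and Cyp27a1, Cyp8b1 and Slc27a2 are highest in PCOS.

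The summed luteal cell markers moved with Fabp6 and Slc51a. Luteal cells are the steroid-making cells of the corpus luteum, which forms after ovulation. All 8 listed markers were measured and their sum, which Star, Cyp11a1, Scarb1 and Akr1c3 dominate, was 7409 to 8851 FPKM in Control and 2291 to 3878 in PCOS. In PCOS-MV it was 8397, 4591, 11096 and 5179 in replicates 1 to 4, so the rats with the larger sums, 1 and 3, were those with more Fabp6 and Slc51a. Star, Scarb1, Cyp11a1, Lhcgr and Prlr were also higher in replicates 1 and 3 than in 2 and 4. Akr1c3 (1466, 1618, 4692 and 2210 FPKM) and Ptgfr (50.3, 60.2, 173 and 81.5) were lowest in replicate 1, and Sfrp4 was lower in 1 and 3. The theca cell marker Cyp17a1 showed the split too (88.1, 1.57, 53.4 and 6.41 FPKM). Within PCOS the pattern was another: replicate 3 had the smallest sum, 2291, and the most Fabp6 and Slc51a. Within Control, replicate 4 had the smallest sum, 7409, and the second highest Fabp6. Lhcgr, the luteinizing hormone receptor, is a luteal marker that theca cells share and went the other way, with 28.7 to 78.2 FPKM in Control and 113 to 199 in PCOS. Of the 8 markers, limma called 5 lower (Star, Cyp11a1, Scarb1, Akr1c3 and Ptgfr) and Lhcgr higher in PCOS vs Control, while Sfrp4 (2.71 to 9.74 against 2.42 to 25.1 FPKM) and Prlr (88.6 to 119 against 94.4 to 123) did not pass. In PCOS-MV vs PCOS it called Star, Akr1c3 and Ptgfr higher and Lhcgr lower. Of all genes tested, 11.9% were higher and 15.6% lower in PCOS vs Control, and 14.3% and 11.4% in PCOS-MV vs PCOS. Slc10a2 did not follow the split of the PCOS-MV rats, since replicate 1 had the least of it and replicates 2 and 4 had similar levels above that. The luteal markers Akr1c3 and Ptgfr were likewise lowest in replicate 1 and highest in replicate 3. The part of luteal cells in these differences was not tested.

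**Figure D2:**
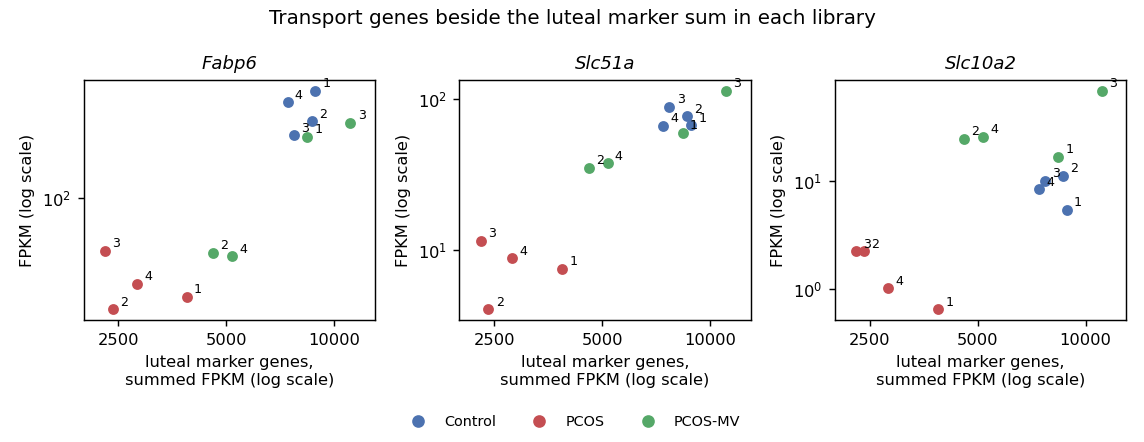
Fabp6, Slc51a and Slc10a2 (FPKM, log scale) against the summed FPKM of 8 luteal markers (log scale), 1 numbered point per library. PCOS rats lie low on both axes, and PCOS-MV replicates 2 and 4 lie between PCOS and Control in the luteal sum, with Fabp6 at the PCOS level and Slc10a2 above Control.

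Most markers of intestinal and liver cells were low. Of 5 enterocyte markers measured, Vil1, Fabp2, Apoa4 and Lct were under 1 FPKM in all 12 libraries, and Fabp2 was listed at 0 in all but PCOS replicate 2. The enterocyte sum, 2.37 to 4.06 FPKM in Control, 2.05 to 2.28 in PCOS and 2.70 to 4.58 in PCOS-MV, was lower in PCOS too and was carried by Cdh17, which held 1.32 to 4.42 FPKM. Of the hepatocyte markers, Apoc3 and Fgb were under 1 FPKM in all libraries, and the sum, 61.7 to 67.8 in Control against 191 to 390 in PCOS and 63.6 to 102 in PCOS-MV, was nearly all Tf, transferrin, which other tissues make too. Alb was under 0.1 FPKM in the 11 libraries other than PCOS replicate 2, which held 4.33 of it and 1.30 of Ttr, and Serpina1 reached 3.48 in Control replicate 3 and 2.25 in PCOS-MV replicate 4.

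Cyp27a1, the mitochondrial enzyme that opens the acidic pathway by adding a hydroxyl group to the side chain of cholesterol, went the other way. It measured 27.0, 20.6, 16.6 and 21.7 FPKM in Control and 36.6, 40.1, 49.4 and 41.6 in PCOS. Every PCOS rat exceeded every Control rat, and the gene rose by 0.94 (SE 0.15) on the log2(FPKM + 1) scale (limma adjusted p = 0.00192; exact permutation p = 0.0286). PCOS-MV libraries measured 24.4, 28.7, 31.5 and 32.7 FPKM, all below PCOS. Cyp27a1 fell in PCOS-MV vs PCOS (-0.50, SE 0.12; limma adjusted p = 0.0163; exact permutation p = 0.0286). Its adjusted p in that comparison lay between 0.0187 and 0.0441 when 1 library at a time was left out. PCOS-MV stayed 0.44 (SE 0.15) above Control with an overlap of the groups, and this did not pass (limma adjusted p = 0.526; exact permutation p = 0.0571).

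Cyp7b1, the oxysterol 7-alpha-hydroxylase that follows Cyp27a1, was nearly level. Control libraries ranged from 1.33 to 1.90 FPKM, PCOS libraries from 1.71 to 2.51 and PCOS-MV libraries from 1.51 to 1.91. The 3 groups overlapped. Limma's adjusted p was 0.319 for PCOS vs Control (0.18, SE 0.12), 0.485 for PCOS-MV vs PCOS (-0.11, SE 0.11) and 0.865 for PCOS-MV vs Control (0.07, SE 0.11), and the exact permutation p was 0.143, 0.4 and 0.429.

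Cyp8b1, the sterol 12-alpha-hydroxylase that turns the pathway towards cholic acid, was a low gene with more RNA in PCOS. Control held 0.329, 0.167, 0.111 and 0.321 FPKM and PCOS 1.30, 3.20, 0.895 and 1.61. PCOS-MV held 0.563, 0.0373, 0.103 and 0.256, again below every PCOS rat. The log2(FPKM + 1) difference was 1.10 for PCOS vs Control and -1.10 for PCOS-MV vs PCOS, each with an exact permutation p of 0.0286. The pseudocount sets this size: at 0.1 in place of 1 the differences were 2.40 and -2.55, and the ratio of mean FPKM was 7.55 for PCOS to Control. The mean of the gene lay below 1 FPKM, so it had no place in the main limma fit. With no filter on low values limma's adjusted p was 0.0157 and 0.0255. PCOS replicate 2, with the most Cyp8b1, was the library with 4.33 FPKM of Alb, and without it the first difference was 0.87.

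Slc27a2, an acyl-CoA synthetase of very long chain fatty acids that can also activate bile acid precursors, had a like order at a lower level. PCOS rats held 0.416, 0.860, 1.24 and 0.226 FPKM against 0.0501, 0.118, 0.180 and 0.0970 in Control. The groups did not overlap, with a difference of 0.56 and an exact permutation p of 0.0286. PCOS-MV rats held 0.0899, 0.0291, 0.272 and 0.0583 FPKM, and replicate 3 exceeded PCOS replicate 4, so these groups overlapped (-0.56; exact permutation p = 0.0571). At a pseudocount of 0.1 the differences were 1.72 and -1.81. With no filter limma's adjusted p was 0.069 and 0.0814. Cyp8b1 and Slc27a2 did not differ between PCOS-MV and Control beyond the spread, at an exact permutation p of 0.971 for each.

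The summed theca markers moved with the enzymes that were higher in PCOS. Theca cells surround the follicle and make androgens with Cyp17a1. The sum of the 5 markers measured was 153 to 213 FPKM in Control, 1757 to 3339 in PCOS and 121 to 230 in PCOS-MV, with Cyp17a1 and Insl3 as its main parts. In PCOS vs Control 4 of the 5 were called higher, Nr2f2 and Aldh1a1 with those, and Ptch1 was called lower (18.4 to 27.3 against 15.1 to 18.2 FPKM). In PCOS-MV vs PCOS the same 4 were called lower. Within PCOS the sum was 3339, 2209, 1757 and 2597 in replicates 1 to 4, so replicate 3, with the most Cyp27a1 and Slc27a2, had the smallest sum. The granulosa sum, led by Inha and Inhba, was 614 to 852, 1070 to 1506 and 603 to 1061 FPKM in Control, PCOS and PCOS-MV. Of its 7 genes, Cyp19a1, Fshr, Inha and Inhba were called higher in PCOS vs Control, while Amh (mean 48.9 against 28.0 FPKM) and Nr5a2 (42.8 against 23.0) lay lower and did not pass. Macrophages, which use Cyp27a1, showed sums of 135 to 204, 156 to 184 and 160 to 260, in which the members differed. Csf1r and Adgre1 rose in PCOS (by 0.45 and 0.49) and fell after MV (-0.33 and -0.68), as Cyp27a1 did, while Cd68 and C1qb rose after MV, and the other 4 of the 8 passed in neither comparison. Adipocyte markers summed to 24.6 to 78.2, 13.9 to 25.0 and 10.6 to 16.9. The part of these cells in the enzyme differences was not tested. The counts of markers called stand against the shares of all genes given with the luteal markers, with nothing read from them.

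Gpbar1, the membrane receptor for bile acids also called TGR5, was close to 0 throughout. It was listed at 0 in 2 Control libraries and 1 PCOS-MV library, and the highest values of the groups were 0.136, 0.113 and 0.0600 FPKM. The groups overlapped in each comparison, with exact permutation p from 0.2 to 0.714.

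Over all genes, limma called 11.9% of the 13430 higher and 15.6% lower in PCOS vs Control at an adjusted p under 0.05, and 31% did not overlap between the groups. Of the 3 members tested there (Slc51a, Cyp27a1 and Cyp7b1), 1 was higher, 1 was lower and 2 did not overlap. In PCOS-MV vs PCOS, 14.3% of all genes were higher, 11.4% were lower and 30% did not overlap, and of the same 3 members 1 was higher, 1 was lower and 2 did not overlap. Since the genes were picked with these comparisons known, nothing is read from those counts. In PCOS-MV vs Control, 0.00745% of genes were higher, which is 1 gene, 0% were lower and 5.1% did not overlap. Limma called none of the same 3 members there, and the groups overlapped for each of them. At an unadjusted p under 0.05 the same fit held 1142 of all genes.

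**Figure D3:**
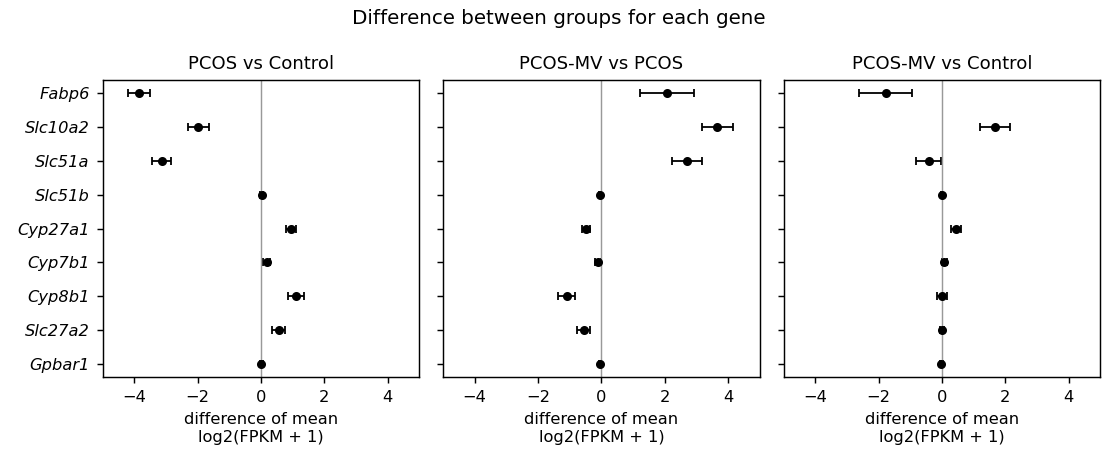
Difference of mean log2(FPKM + 1) between groups for the 9 genes in each comparison, first group minus second. Bars are the SE from the SDs of the groups (n = 4 each). In PCOS vs Control the transport genes Fabp6, Slc10a2 and Slc51a lie left of 0 and Cyp27a1, Cyp8b1 and Slc27a2 right of it, and in PCOS-MV vs Control Fabp6 (-1.78) and Slc10a2 (1.68) lie farthest from 0.

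The order of the genes by FPKM changed between the groups. In Control, Fabp6 (mean 394 ± 120 FPKM, SD, n = 4) was followed by Slc51a (74.7 ± 10.6), Cyp27a1 (21.5 ± 4.29), Slc10a2 (8.82 ± 2.53) and Cyp7b1 (1.64 ± 0.24), and no neighbours among these 5 overlapped. In PCOS, Cyp27a1 (41.9 ± 5.43) led and overlapped with Fabp6 (27.0 ± 11.6), Slc51a (8.0 ± 3.09) came next, and Cyp7b1 (1.99 ± 0.36), Cyp8b1 (1.75 ± 1.01) and Slc10a2 (1.54 ± 0.83) overlapped with one another. In PCOS-MV, Fabp6 (166 ± 147) and Slc51a (61.5 ± 36.4) overlapped, as did Slc51a with Slc10a2 (34.2 ± 23.7) and Slc10a2 with Cyp27a1 (29.3 ± 3.69). The SD of Fabp6 in PCOS-MV was thus close to its mean.

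Other genes of bile acid handling were followed from lists of 59 names, which were written with earlier results of these data known. The table held 52 of them and 30 were tested. In PCOS vs Control 4 were higher, 9 were lower and 17 did not pass, where 11.9% and 15.6% of all genes were higher and lower, with a median log2 difference of 0.07 against -0.03 over all genes tested. In PCOS-MV vs PCOS 8 were higher, 5 were lower and 17 did not pass, where 14.3% and 11.4% of all genes were, with a median of 0.01 against 0.03. In PCOS-MV vs Control none of the 30 was called, with a median of 0.05 against -0.0037. Each list by itself held 3 to 8 genes tested, save that of bile acid sulfation, of which no gene was tested. The counts of each list stand against the same shares of all genes, with nothing read from them.

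The RNA of Cyp7a1, Slc10a1 and Abcb11 was next to absent. Cyp7a1, the first enzyme of the classic pathway, was at most 0.0163 FPKM, Slc10a1, the uptake transporter of hepatocytes, at most 0.0454, and Abcb11, the bile salt export pump, at most 0.0569. Other listed synthesis genes ranged from near 0, as for Acox2 with at most 0.201 FPKM, to 47.4 to 105 FPKM for Akr1c14. Of 8 synthesis genes tested, PCOS vs Control showed 1 higher and 1 lower, and PCOS-MV vs PCOS showed 1 lower. Fdx1 and Fdxr, the ferredoxin and its reductase that hand electrons to mitochondrial P450 enzymes such as Cyp27a1 and the side chain cleavage enzyme Cyp11a1, moved against Cyp27a1. Fdx1 measured 909, 776, 573 and 685 FPKM in Control, 442, 216, 161 and 270 in PCOS and 1176, 497, 912 and 552 in PCOS-MV. Fdx1 fell in PCOS (-1.51, SE 0.29; limma adjusted p = 0.00547) and rose after MV (1.53, SE 0.36; limma adjusted p = 0.0162). Fdxr fell by 1.01 (SE 0.19; limma adjusted p = 0.00436) and rose by 0.80 (SE 0.18; limma adjusted p = 0.0134), while the third electron donor of the list, Por, did not pass in either comparison.

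Among 6 other bile acid transporters tested, 2 were higher and 2 lower in PCOS vs Control, and 2 were higher and 3 lower in PCOS-MV vs PCOS. Abcc4, which exports bile acids and other organic anions at the plasma membrane, had mean levels of 40.4 ± 3.66 FPKM in Control, 15.2 ± 1.81 in PCOS and 46.4 ± 16.8 in PCOS-MV (SD, n = 4). It fell by 1.36 (SE 0.10; limma adjusted p = 4.95e-05) and rose by 1.497 (SE 0.21; limma adjusted p = 0.00154). Slco2b1, an uptake transporter of steroid sulfates and other organic anions, had 26.1 ± 4.79, 46.4 ± 2.83 and 30.7 ± 1.77 FPKM in the same order. It rose in PCOS (0.82, SE 0.12; limma adjusted p = 0.00157) and fell after MV (-0.58, SE 0.07; limma adjusted p = 0.000915). Slco1a4, of the same family, had 2.68 to 5.12, 7.26 to 14.2 and 3.41 to 4.77 FPKM. It rose in PCOS (1.24, SE 0.23, limma adjusted p = 0.00481) and fell after MV (-1.19, SE 0.18, limma adjusted p = 0.00255). None of the 3 other SLC10 family members tested passed in either comparison.

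FXR, the nuclear bile acid receptor encoded by Nr1h4, measured 0.336 to 0.555 FPKM in Control, 0.875 to 1.20 in PCOS and 0.142 to 0.488 in PCOS-MV. It was highest in the group where Fabp6 and Slc51a, which FXR is known to induce in the ileum, were lowest. With a mean below 1 FPKM its RNA was not tested, and the part of FXR in these differences was not tested either. Nr0b2, the corepressor SHP and another FXR target, had 2.30 to 3.79, 2.77 to 4.71 and 2.85 to 3.55 FPKM in the same order and passed in no comparison. Of 7 sensing genes tested, 2 were lower in PCOS vs Control and 2 were higher in PCOS-MV vs PCOS.

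Of the other fatty acid binding proteins 3 were tested, of which 1 was higher and 2 were lower in PCOS vs Control, and 2 were higher and 1 was lower in PCOS-MV vs PCOS. Fabp3, the heart-type protein, measured 31.6 to 45.5 FPKM in Control, 300 to 417 in PCOS and 13.0 to 81.9 in PCOS-MV. It rose by 3.11 (SE 0.14, limma adjusted p = 5.13e-06) and fell after MV (-3.30, SE 0.55, limma adjusted p = 0.00346). Between groups this is the opposite order to Fabp6. Within PCOS-MV, Fabp3 held 81.9, 13.0, 65.4 and 18.0 FPKM in replicates 1 to 4, higher in 1 and 3 as Fabp6 was. Fabp4, the adipocyte-type protein also found in endothelium and macrophages, fell in PCOS (-2.49, SE 0.34; limma adjusted p = 0.00107), from 8.85 to 27.5 FPKM in Control to 1.28 to 2.87 in PCOS. After MV it rose (2.37, SE 0.58; limma adjusted p = 0.0186), to 3.63 to 33.8 FPKM in PCOS-MV. Fabp1 and Fabp2, the other intestinal proteins of the family, were not among the genes tested.

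**Figure D4:**
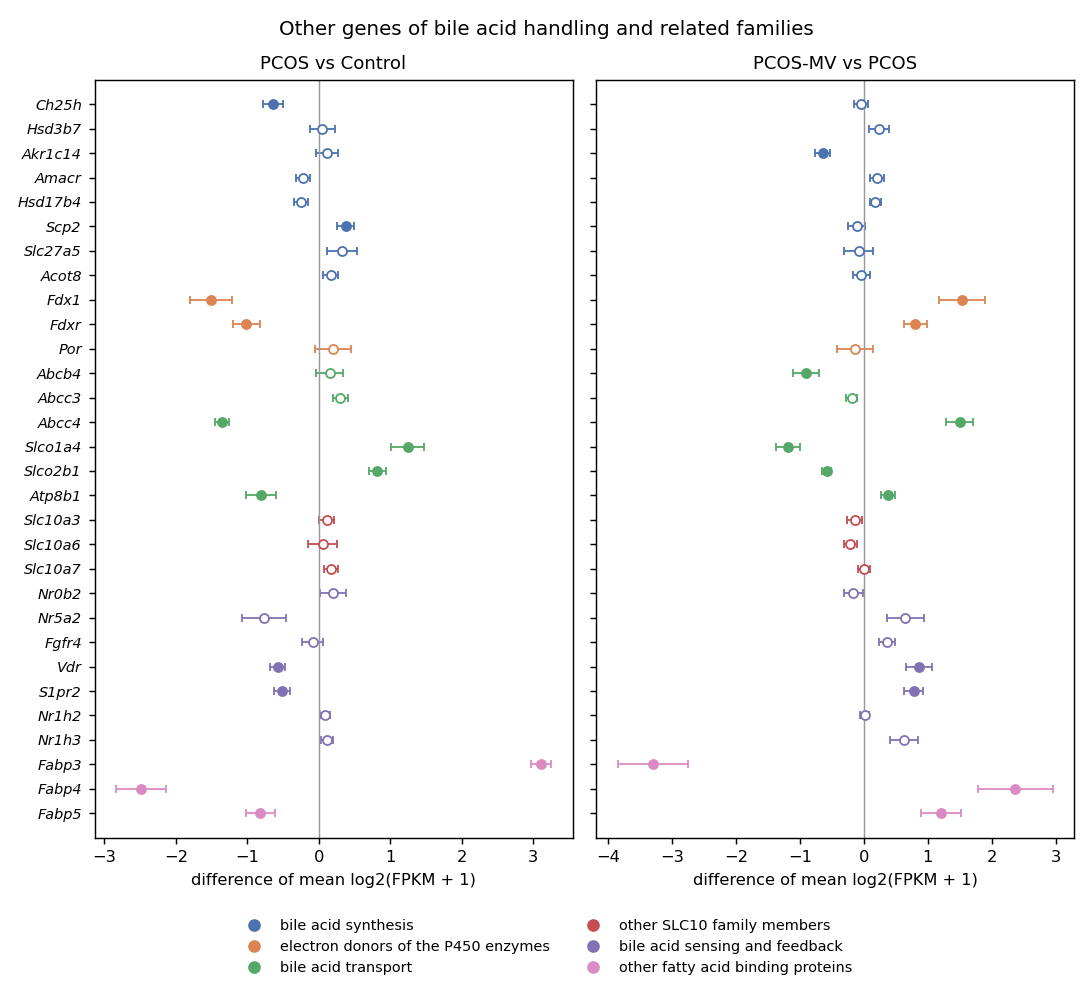
Difference of mean log2(FPKM + 1) for the 30 other listed genes tested, in both comparisons with the PCOS group, coloured by list. Bars are the limma SE, filled points passed an adjusted p of 0.05, and the 2 comparisons share the PCOS libraries. Fabp3 lies farthest right in PCOS vs Control at 3.11 and farthest left in PCOS-MV vs PCOS at -3.30.

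The genes with the pattern most like that of Fabp6 over the 12 libraries, by Pearson r of log2(FPKM + 1), were Ctnnbip1 (0.986), Slc6a7 (0.981), Bpifb6 (0.980), Kifc3 (0.980) and Kalrn (0.979). Slc6a7 measured 8.57 to 15.0 FPKM in Control, 0.114 to 0.926 in PCOS and 0.716 to 8.82 in PCOS-MV, and Kifc3 36.5 to 50.1, 6.02 to 10.6 and 8.83 to 44.7. For Slc10a2 the nearest were Cdkn1a (0.964), Plin2 (0.951), Dhx32 (0.949), Gpr25 (0.946) and Rflnb (0.946). Plin2, the lipid droplet protein perilipin 2, measured 100 to 136 FPKM in Control, 29.6 to 41.0 in PCOS and 114 to 273 in PCOS-MV, and Cdkn1a, the cell cycle inhibitor p21, 27.1 to 63.9, 17.9 to 26.0 and 44.7 to 125. Between members, r was 0.90 for Fabp6 and Slc51a, 0.78 for Slc10a2 and Slc51a, 0.51 for Fabp6 and Slc10a2 and -0.76 for Fabp6 and Cyp27a1. These values describe 12 libraries that fall into 3 groups, and they carry the differences between the groups.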

How the data were processed

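Ovarian RNA of 12 rats was sequenced, 1 library per rat, and libraries were grouped by title and treatment in the labels. The authors deposited FPKM per gene on 26928 transcript lines, with gene coordinates, transcript length, group means and their own log2 fold changes and p-values. Transcript length was used only for the steps in the low values, and the authors' fold changes and p-values were not used. The paper's methods give HISAT2 v2.0.5 and featureCounts with gene lengths, while the submitters' processing notes name STAR 2.5.1b and HTSeq 0.6.0. This difference was not resolved, the genome build is not given in the sources used here, and gene coordinates of the deposited table are therefore not printed. Either route counts reads per gene, so reads shared by similar genes may be lost or split. The methods speak of 3 biological replicates per condition, and 4 libraries per group were analysed. The columns headed MG were taken as the PCOS-MV libraries, by their titles.

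The lines of a gene held equal values, and 1 per gene was kept, which left 19730 genes. Genes whose mean over all libraries was under 1 FPKM were set aside, and log2(FPKM + 1) of the other 13430 was compared between 2 groups at a time with limma 3.58.1 (trended eBayes) in R 4.3.3, with Benjamini-Hochberg adjustment over all genes tested and a call at adjusted p under 0.05. Differences on this scale understate those of low genes. In addition, 23 exact two-sided permutation tests of 4 against 4 were run for single genes, without adjustment, and none can go below 0.0286. Those of Fabp6 and Slc10a2 in PCOS-MV vs Control are not printed, since their choice used these libraries. The members and lists were chosen with earlier results of these data known. Members, the fixed pathway genes, up to 4 pathway genes with the smallest adjusted p in each comparison, and the 5 nearest patterns of Fabp6 and of Slc10a2 are named; Por, Fabp1, Fabp2 and single markers were added after their values had been seen. Of the listed names, Akr1c18 and Slco1a5 were matched as Akr1c3 and Slco1a2 through RefSeq synonyms. Low values fell on steps of whole reads in 28.0% to 31.7% of cases, within 0.03 of a step, where 6% would by chance, which gave relative depth but no counts. The limma script was tested on simulated data. Alternatives were a pseudocount of 0.1, no filter, 1 model for all libraries, a replicate block, libraries rescaled by their median ratio and leaving out each library.

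Promoter windows are RefSeq sequence of GRCr8.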

Additional observations from a re-analysis of the deposited data

Results flagged for a closer look

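In groups of 4, the FPKM of the library farthest from the others was compared with Dixon's 95% critical value. Of 26 groups examined, 3 held a library beyond it, where about 1.3 would by chance if FPKM were normally distributed. Groups with zeros are not, so nothing is read from the count, and the check was not made on the log2 scale. Slc10a2 in PCOS-MV replicate 3, at 69.3 FPKM, lay far above the other PCOS-MV rats, which held 17.0 to 25.7 FPKM. The same rat had the highest Slc51a of all 12 libraries, at 113 FPKM, and the highest luteal marker sum, at 11096 FPKM. Slc51b stood out in Control replicate 4 at 0.0504 FPKM and in PCOS replicate 1 at 0.11 FPKM only because the other rats of those groups were listed at 0.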

How the results depend on the processing

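No call of Slc51a, Cyp27a1 or Cyp7b1 changed under any alternative. Their recomputed values, with those of Fabp6 and Slc10a2 in PCOS-MV vs Control, which are a description only, numbered 143. Of the other differences, 173 recomputed values moved by less than the spread of the replicates and 11 by more, all 11 with a pseudocount of 0.1, and no called value changed sign. With that pseudocount Slc10a2 was at -2.56 in PCOS vs Control, Cyp8b1 at 2.40 and -2.55 and Slc27a2 at 1.72 and -1.81 in the comparisons with PCOS. In PCOS-MV vs Control, limma called 1 gene in all, 0 with the replicate block and 1 to 4 when 1 library was left out. Same-numbered libraries deviated from their group means with correlations of -0.05 to 0.22. For PCOS-MV vs PCOS 3 of 4 pairs were over 0.1 and 7 of 8 libraries correlated best with their own number, against 0 of 8 for PCOS vs Control and 2 of 8 for PCOS-MV vs Control. Since no label says that a number marks a shared litter or day and 1 pair lay at 0.04, the numbers were not taken to pair the rats, though the data hint at it in that comparison. The replicate block called 1239 higher and 1666 lower genes in PCOS vs Control and 1706 higher and 1373 lower in PCOS-MV vs PCOS, and changed no call of a tested member. The other listed genes were not read under the block. Higher genes in PCOS-MV vs PCOS numbered 1278 when PCOS replicate 2 was left out and 1272 when replicate 4 was, in place of 1918. Rescaling by the median ratio split the PCOS vs Control calls into 1918 higher and 1920 lower, in place of 1594 and 2090. With 4 rats per group and no read counts, genes below 1 FPKM have no count-based error.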
